A study of Mus musculus with 4 samples.

Results

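Th17 cells are CD4 T cells named for the cytokine IL-17, and 9 genes of their cytokine, receptor and transcription factor machinery are described here across 2 tissues of mice with experimental autoimmune encephalomyelitis (EAE). The genes were taken by name from the study's tables, after summing the value of every transcript that carries the gene's symbol, and all 9 were found among 23990 gene symbols. They comprise the cytokines Il17a, Il17f and Il22, the receptors Il23r, Il1r1 and Ccr6, and the transcription factors Rora, Ahr and Maf. The 2 groups were CD44+CD4 effector cells sorted at the onset of disease, either from spinal cord (CNS) or from pooled draining lymph nodes (dLN), of wild type C57BL/6 mice, with 2 libraries in each group. All mice had been immunized with a MOG peptide in complete Freund's adjuvant and given pertussis toxin. According to the methods, sorted cells received PMA and ionomycin before RNA isolation, whereas the labels describe freshly sorted cells and name no stimulation. Neither source gives the age or sex of the animals, or says how many mice went into a library, so a p-value here measures the spread between libraries that may or may not come from separate mice.

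As background, Th17 cells arise when TGF-beta and IL-6 act on naive CD4 cells and switch on nuclear receptors of the ROR family, RORα (gene Rora) among them, which bind the regulatory DNA of Il17a and Il17f. IL-1 and IL-23, sensed through Il1r1 and Il23r, then stabilize the programme and give the cells the capacity to cause EAE. CCR6 is the receptor for the chemokine CCL20 and is a surface marker of these cells, AhR is a ligand-activated factor needed for Il22, and c-Maf is a bZIP factor that acts on Il10 and Il21.

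The values are FPKM, mapped fragments scaled to transcript length and library size, so levels can be set side by side between genes. Each library had been scaled to its own total. A difference between libraries therefore also depends on the scaling, and other scalings are given below. From the steps in which low FPKM values fell, the depth was estimated at 18.6 M to 21.9 M fragments per library. The gene with the fewest fragments was Il17f, with an estimated 68.5 fragments in CNS replicate 1, so none of the 9 genes was near the floor of 3 fragments. Every one of the 9 also had a mean of at least 1 FPKM in both tissues, and none entered the test through one tissue alone. Of 12 T cell markers, 6 were higher in CNS (Cd3d, Cd3e, Cd3g, Cd4, Lck and Cd28), 4 were lower (Cd247, Cd5, Cd44 and Zap70) and 2 did not pass the test given below, with Cd4 at 502 and 531 FPKM in CNS and 82.0 and 66.7 FPKM in dLN. The libraries also differed in ways the tissue labels do not give. The X-linked RNA Xist reached 26.6 and 22.3 FPKM in dLN against 0 and 0.0026 FPKM in CNS, whereas Y-linked Ddx3y was at 12.7 and 11.2 FPKM in CNS and listed at 0 in dLN. CNS replicate 2 held transcripts of myeloid cells that the other libraries had little of, such as S100a8 at 101 FPKM against 0 in each of the other libraries. In the order CNS replicates 1 and 2 and dLN replicates 1 and 2, neutrophil markers summed to 0.767, 202, 0.0229 and 0 FPKM, microglial markers to 42.5, 40.9, 4.32 and 2.42, dendritic cell markers to 7.67, 14.5, 3.21 and 2.11, and NK cell markers to 2.63, 5.60, 0.0865 and 0. Markers of CD8 T cells summed to 3.79, 5.40, 3.42 and 3.40 FPKM, of neural cells to 51.9, 54.1, 55.8 and 58.0, and of endothelial cells to 20.7, 25.3, 12.04 and 9.66. Mbp made up most of the neural sum, at 48.6, 44.5, 55.5 and 57.7 FPKM, while the neuronal gene Tubb3 was at 2.10, 4.401, 0.105 and 0.0294, the astrocyte gene Gfap at 0.655, 2.51, 0 and 0, and Snap25 at 0.316, 1.80, 0.00279 and 0.0246, all higher in both CNS libraries. The part of these cells in the results was not tested. Sex and tissue follow the same split of the libraries and cannot be told apart.

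The promoter windows of the genes with the largest falls are given first, since ROR factors are known to act on regulatory DNA of Il17a and Il17f. RefSeq windows of 300 bases, 250 before and 50 after a listed start site, were taken in GRCm38.p6 (the build also called mm10). Windows were present for 7 of the 9 genes, with 9 in all because Il1r1 and Ccr6 have 2 windows each. Further transcript starts of Ccr6 and the internal start of Rora have no window. The windows of Il17a (chr1:20730655-20730954, plus strand), Il17f (chr1:20784221-20784520, minus strand), Il23r (chr6:67491806-67492105, minus strand) and the upstream start of Ccr6 (chr17:8235793-8236092, plus strand) each hold the core of the ROR response element, and that of Il22 (chr10:118204714-118205013, plus strand) does not. They read, 5′ to 3′ on the strand of the gene, with ROR cores and TATA boxes in capitals:
Il17a: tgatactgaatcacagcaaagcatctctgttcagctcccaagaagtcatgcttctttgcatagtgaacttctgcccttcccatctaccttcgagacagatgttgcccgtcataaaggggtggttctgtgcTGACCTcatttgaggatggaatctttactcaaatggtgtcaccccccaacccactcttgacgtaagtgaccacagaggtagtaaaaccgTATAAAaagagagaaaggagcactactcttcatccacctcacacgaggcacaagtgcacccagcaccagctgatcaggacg
Il17f: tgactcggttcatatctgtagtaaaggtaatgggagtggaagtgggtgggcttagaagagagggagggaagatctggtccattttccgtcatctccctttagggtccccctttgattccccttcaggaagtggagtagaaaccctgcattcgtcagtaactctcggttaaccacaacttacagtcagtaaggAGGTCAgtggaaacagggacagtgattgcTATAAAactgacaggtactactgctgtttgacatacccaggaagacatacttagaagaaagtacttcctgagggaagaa
Il23r: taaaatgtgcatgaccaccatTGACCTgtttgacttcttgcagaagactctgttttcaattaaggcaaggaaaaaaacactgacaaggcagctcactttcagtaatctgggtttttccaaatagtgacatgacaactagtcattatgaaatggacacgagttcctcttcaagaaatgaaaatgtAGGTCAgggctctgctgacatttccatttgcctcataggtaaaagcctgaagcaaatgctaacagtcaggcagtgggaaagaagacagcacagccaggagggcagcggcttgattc
Ccr6: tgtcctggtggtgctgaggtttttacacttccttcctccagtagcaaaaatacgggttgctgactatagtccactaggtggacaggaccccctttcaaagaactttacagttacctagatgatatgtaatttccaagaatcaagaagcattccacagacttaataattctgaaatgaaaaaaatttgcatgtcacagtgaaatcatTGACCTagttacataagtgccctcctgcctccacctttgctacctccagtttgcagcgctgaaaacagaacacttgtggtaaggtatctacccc
Il22: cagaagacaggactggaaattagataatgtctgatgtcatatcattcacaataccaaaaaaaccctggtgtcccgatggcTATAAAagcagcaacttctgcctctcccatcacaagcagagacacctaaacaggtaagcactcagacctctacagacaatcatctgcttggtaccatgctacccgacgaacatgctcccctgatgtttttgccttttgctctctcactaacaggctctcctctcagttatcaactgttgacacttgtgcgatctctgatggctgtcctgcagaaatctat

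The ROR core was searched as AGGTCA on both strands, so that a match on the other strand reads TGACCT above. It was found in 4 of the 9 windows of these genes, and in 16.3% of 32851 RefSeq promoter windows of the same length. In Il17a it starts 120 bases before the start site and overlaps a Maf half-site (TGCTGA) by 3 bases, in Il17f it starts 58 bases before it, and in Il23r there are 2 matches, 66 and 229 bases before it. The TATA box (TATAAA) begins 31 bases before the start site in Il17a, 29 before it in Il17f and 170 before the listed start in Il22, and 13.6% of all windows hold one. The AhR core (GCGTG) was found in both Il1r1 windows and in that of the upstream Rora start, and in 32.4% of all windows. The NFAT core (GGAAA) was in 7 of the 9 windows against 61.3% of all, the Maf half-site in 4 of 9 against 19.5%, and the AP-1 site (TGANTCA) in that of Il17a, against 7.81%. These are matches of letters in the windows, not measured binding.

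The comparison of CNS with dLN asks which parts of the Th17 programme CD4 cells carry once they are in the spinal cord. All 3 cytokine genes and all 3 receptor genes were lower in CNS than in dLN, the cytokines by far the most, while the transcription factor genes went apart, with Ahr lower, Maf higher and Rora within a narrow range in all libraries. In limma on log2(FPKM + 1), 7 of the 9 genes fell and 1 rose in CNS at a Benjamini-Hochberg adjusted p under 0.05, and Rora did not pass. Of all 10634 genes tested, 74.9% passed, with 37.2% of all genes lower and 37.8% higher in CNS, so passing the test is by itself common in this comparison. The sizes were less common. A fall with a log2 ratio under -2 was seen in 5 of the 9 genes and in 5.55% of all genes tested. The median log2 ratio was -2.38 over the 9 genes and 0.05 over all genes. The 2 libraries of one tissue lay apart from the 2 of the other in all 9 genes, against 89.4% of all genes. Over whole tissues, fewer cells that carry a transcript and less of it per cell cannot be told apart in these bulk libraries.

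**Figure D1:**
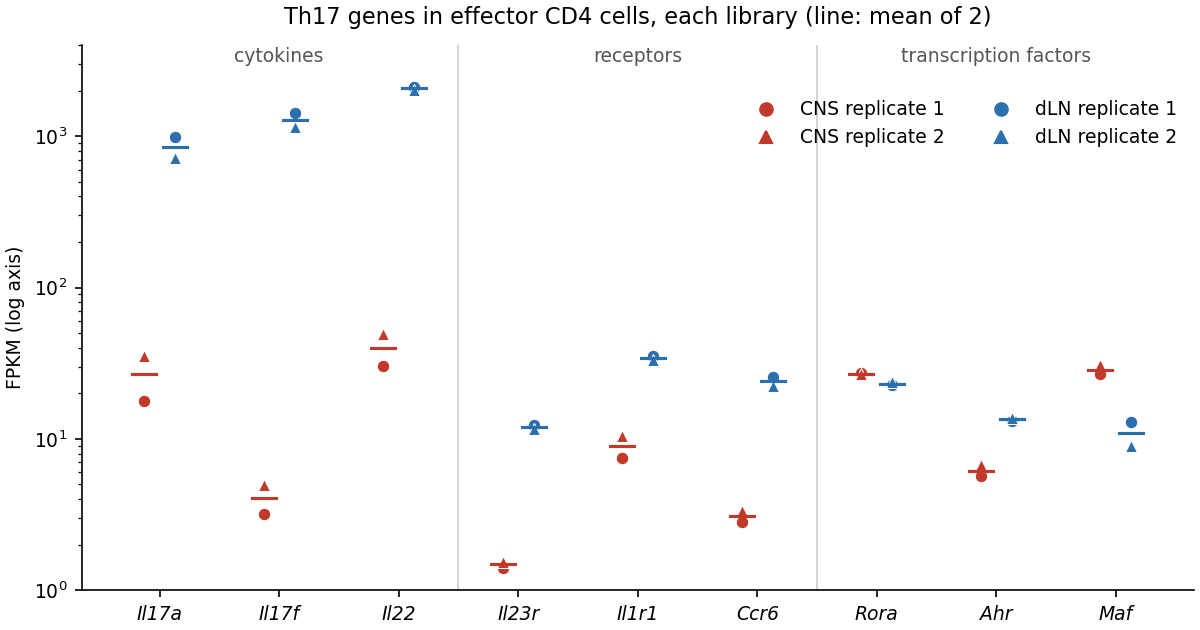
FPKM (log axis) of the 9 Th17 genes in each of the 4 libraries, with CNS in red and dLN in blue, circles for replicate 1, triangles for replicate 2 and a line at the mean of 2. The 3 cytokine genes lie between 720 and 2124 FPKM in dLN and between 3.21 and 48.9 FPKM in CNS, whereas Rora lies between 22.6 and 27.1 FPKM in all libraries.

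Il17f encodes IL-17F, which pairs with itself or with IL-17A to activate epithelial and stromal cells. The gene lies on chromosome 1 (chr1:20777146-20784270, minus strand, mm10, Entrez 257630). Its level was 3.21 and 4.92 FPKM in CNS against 1416 and 1150 FPKM in dLN. Both dLN libraries lay far above both CNS libraries, and the ratio of the means was 316. On the log2(FPKM + 1) scale the ratio of CNS to dLN was -8.00 with a standard error of 0.20 (adjusted p = 8.12e-05, limma), which was the second lowest of all genes tested.

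Il17a (chr1:20730905-20734496, plus strand, Entrez 16171) encodes IL-17A, the defining cytokine of these cells. It was at 17.9 and 35.5 FPKM in CNS and at 988 and 720 FPKM in dLN. The CNS libraries differed from each other 1.98-fold, the widest gap within a tissue among the 9 genes, and both remained far below the dLN libraries. The means differed 32-fold and the log2 ratio was -5.01 with a standard error of 0.35 (adjusted p = 0.000259, limma).

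Il22 (chr10:118204964-118210046, plus strand, Entrez 50929) encodes IL-22, which acts on epithelial cells rather than on leukocytes. Its level was 30.5 and 48.9 FPKM in CNS and 2124 and 2026 FPKM in dLN, where it ranked 34 and 38 among all 23990 genes by FPKM. In CNS it ranked 2305 and 1517. The log2 ratio was -5.71 with a standard error of 0.23 (adjusted p = 9.09e-05, limma) with no overlap between tissues. Iltifb, a copy of Il22 on the same chromosome whose spliced transcript is identical to it at 97.4% of 1110 aligned bases, followed it at 2.48 and 4.92 FPKM in CNS and 183 and 169 FPKM in dLN. Stretches of up to 215 identical bases mean that reads could be split between the 2 copies in either direction. Il22 stood 12.3 and 9.96 times above Iltifb in CNS and 11.6 and 11.98 times in dLN, and with both summed the log2 ratio of Il22 was -5.70.

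Together the 3 cytokine genes took 0.879% and 0.76% of all FPKM in the dLN libraries and 0.00896% and 0.0148% in the CNS libraries. They did not fall by the same factor. For each unit of Il17a, the CNS libraries held 0.179 and 0.139 of Il17f and the dLN libraries 1.43 and 1.60, so that Il17f was the more abundant of the pair in both dLN libraries and the less abundant in both CNS libraries. The ratio of Il17f to Il22 was likewise lower in CNS, at 0.105 and 0.101, than in dLN, at 0.667 and 0.568. The ratio of Il22 to Il17a lay nearer between tissues, at 1.70 and 1.38 in CNS and 2.15 and 2.81 in dLN. A ratio within a library does not depend on how the library was scaled. With 2 libraries against 2 an exact permutation test (two-sided) cannot go below p = 0.333, which each of these 3 ratios gave, or 0.424 after Benjamini-Hochberg adjustment over the 14 ratios computed.

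Cytokine genes are also among the transcripts that PMA and ionomycin raise most, and a list of 15 such genes was set beside the members. Of its 15 genes 10 fell, 3 rose and 2 did not pass, with a median log2 ratio of -1.57. Without Il4, which reached a mean of 1 FPKM in dLN alone, 9 of 14 fell and the median was -1.37. Il2, the T cell growth factor, was at 18.2 and 38.8 FPKM in CNS and 5363 and 6176 FPKM in dLN, while Cd69 (log2 ratio 1.32), Ifng (1.43) and Nfkbia (1.08) were higher in CNS. The part of stimulation in the fall of the Th17 cytokines was not tested. Against Ifng the exchange was wide in both directions. CNS libraries held 26.2 and 19.5 units of Ifng for each unit of Il17a, and dLN libraries 0.328 and 0.191.

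Il23r (chr6:67422932-67491855, minus strand, Entrez 209590) encodes the chain that is specific to the receptor of IL-23. Its level was 1.41 and 1.55 FPKM in CNS, an estimated 68.5 and 76.6 fragments, and at 12.3 and 11.6 FPKM in dLN. The libraries of a tissue lay within 1.10-fold of each other and the means differed 8.07-fold. The log2 ratio was -2.38 with a standard error of 0.10 (adjusted p = 9.33e-05, limma).

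Ccr6 (chr17:8236043-8257129, plus strand, Entrez 12458) was at 2.81 and 3.35 FPKM in CNS and at 25.6 and 22.5 FPKM in dLN, a log2 ratio of -2.62 with a standard error of 0.12 (adjusted p = 0.000102, limma). It kept step with Il23r, since the ratio of Ccr6 to Il23r was 1.99 and 2.17 in CNS and 2.09 and 1.94 in dLN, with overlapping values (exact permutation p = 0.667, adjusted 0.778). B cells also carry CCR6, and the 6 B cell markers summed to 1.34 and 1.97 FPKM in CNS and to 0.564 and 0.386 FPKM in dLN, with 5 of the 6 under 1 FPKM in both tissues. Their part in the level of Ccr6 was not tested.

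Il1r1 (chr1:40225080-40316177, plus strand, Entrez 16177) encodes the signalling IL-1 receptor. It was at 7.43 and 10.5 FPKM in CNS and at 35.4 and 33.3 FPKM in dLN, the smallest fall of the 3 receptors, with a log2 ratio of -1.84 with a standard error of 0.17 (adjusted p = 0.000542, limma). The receptors are read by their transcripts here and not by protein on the cell surface.

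**Figure D2:**
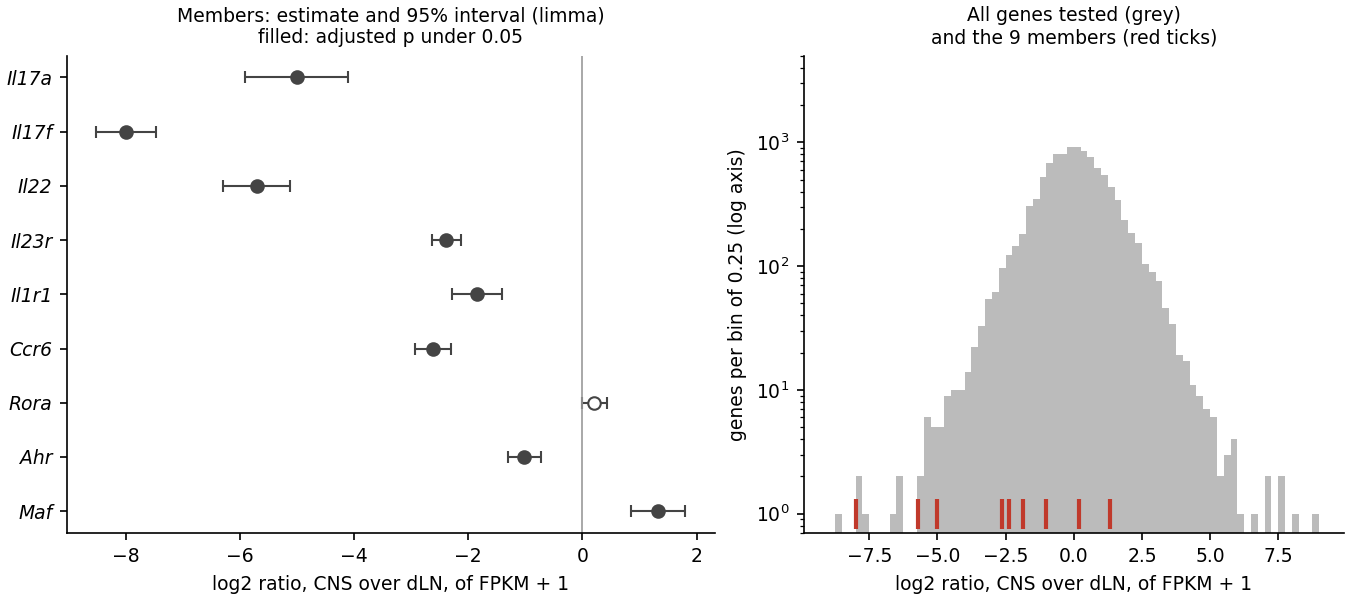
Left, the log2 ratio of CNS over dLN on the log2(FPKM + 1) scale for each of the 9 genes with its 95% interval from limma, filled where the adjusted p is under 0.05. Right, the log2 ratios of all 10634 genes tested in bins of 0.25 (log axis), with the 9 genes as red ticks, of which Il17f, Il22 and Il17a lie in the far lower tail and Rora and Maf above 0.

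Maf (chr8:115703253-115706894, minus strand, Entrez 17132) was the gene of the 9 that rose. It was at 26.8 and 30.6 FPKM in CNS and at 12.9 and 9.03 FPKM in dLN, a log2 ratio of 1.33 with a standard error of 0.18 (adjusted p = 0.00216, limma). Macrophages also express Maf, and the 7 macrophage markers found in the tables summed to 10.9 and 150 FPKM in CNS and 4.21 and 3.88 FPKM in dLN, with Csf1r and Aif1 at 0 in both dLN libraries. CNS replicate 1 also held the macrophage gene Itgam, at 2.37 FPKM against 0.24 and 0.111 FPKM in dLN. The part of macrophages in the level of Maf was not tested. Between the CNS libraries Maf differed 1.14-fold. Without CNS replicate 2 the log2 ratio of Maf was 1.24, and the other libraries left out in turn gave values up to 1.56. With libraries brought to the same level of T cell markers it was 0.55 (adjusted p = 0.0173, limma).

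Ahr (chr12:35497979-35534989, minus strand, Entrez 11622) was at 5.64 and 6.68 FPKM in CNS and at 13.2 and 13.7 FPKM in dLN, with a log2 ratio of -1.02 with a standard error of 0.11 (adjusted p = 0.00097, limma). It thus moved against Maf, and for each unit of Ahr the CNS libraries held 4.75 and 4.58 units of Maf and the dLN libraries 0.982 and 0.657.

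Rora (chr9:68653786-69388246, plus strand, Entrez 19883) was at 27.1 and 26.9 FPKM in CNS and at 22.6 and 23.8 FPKM in dLN. The tissues did not overlap, but the gap was 1.16-fold and did not pass the test (log2 ratio 0.21, 95% interval -0.0056 to 0.43, limma adjusted p = 0.0698). The call depended on the scaling, since Rora passed with libraries brought to the same upper quartile (log2 ratio 0.34, limma adjusted p = 0.018) and turned to -0.58 (limma adjusted p = 0.00256) with libraries brought to the same level of T cell markers. That last scaling lowered the median of all genes by 0.74, and relative to the median Rora stood at 0.11, against Maf at 1.24 and Il17f at -8.04. It also turned the split of all called genes from 4016 higher and 3952 lower to 2107 higher and 6538 lower, whereas the other 8 genes kept their direction and passed under every scaling tried.

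In order of level, dLN cells ran from Il22 at 2075 FPKM through Il17f at 1283 and Il17a at 854 to Il1r1 at 34.3, and then Ccr6, Rora, Ahr, Il23r and Maf at 10.97 FPKM, where the ranges of Ccr6 and Rora and of Il23r and Maf overlapped. In CNS the order was Il22 at 39.7 FPKM, Maf at 28.7, Rora at 27.0 and Il17a at 26.7, each with a range that overlapped the next, followed by Il1r1 at 8.95, Ahr at 6.16, Il17f at 4.06, Ccr6 at 3.08 and Il23r at 1.48 FPKM, with an overlap between Il17f and Ccr6. Il17f went from second place in dLN to seventh place in CNS, and Maf from the last place to the second. Summed, the 3 factor genes stood at 48.7 and 46.5 FPKM in dLN and 59.5 and 64.2 FPKM in CNS, while the 3 receptor genes stood at 73.2 and 67.4 FPKM in dLN and 11.7 and 15.4 FPKM in CNS.

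The transcripts of a gene differ in start site, and the tables divide the FPKM of a gene among them by estimate, so that transcripts that share most of their exons are uncertain. Rora was read from its internal start in every library. The transcript from position 69289841 of chromosome 9 held between 99.9995% and 99.9998% of the FPKM, and the 2 forms that start at 68653786, whose promoter window is the one in RefSeq's table, held the rest.

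Ccr6 has 7 transcripts, and the one from the upstream start at 8236043 of chromosome 17, whose window is printed above, was the largest in each library, at 92.3% and 64.8% of the gene in CNS and 74.0% and 50.2% in dLN. One spliced form from the start at 8243807 was at 8.14% and 23.0% in dLN and at most 0.0657% in CNS. Il1r1 has 2 starts on chromosome 1, at 40225080 and 40266586. The upstream one took 79.3% and 52.9% in CNS and 48.9% and 54.4% in dLN, so that CNS replicate 1 stood apart and the other libraries of both tissues lay together.

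**Figure D3:**
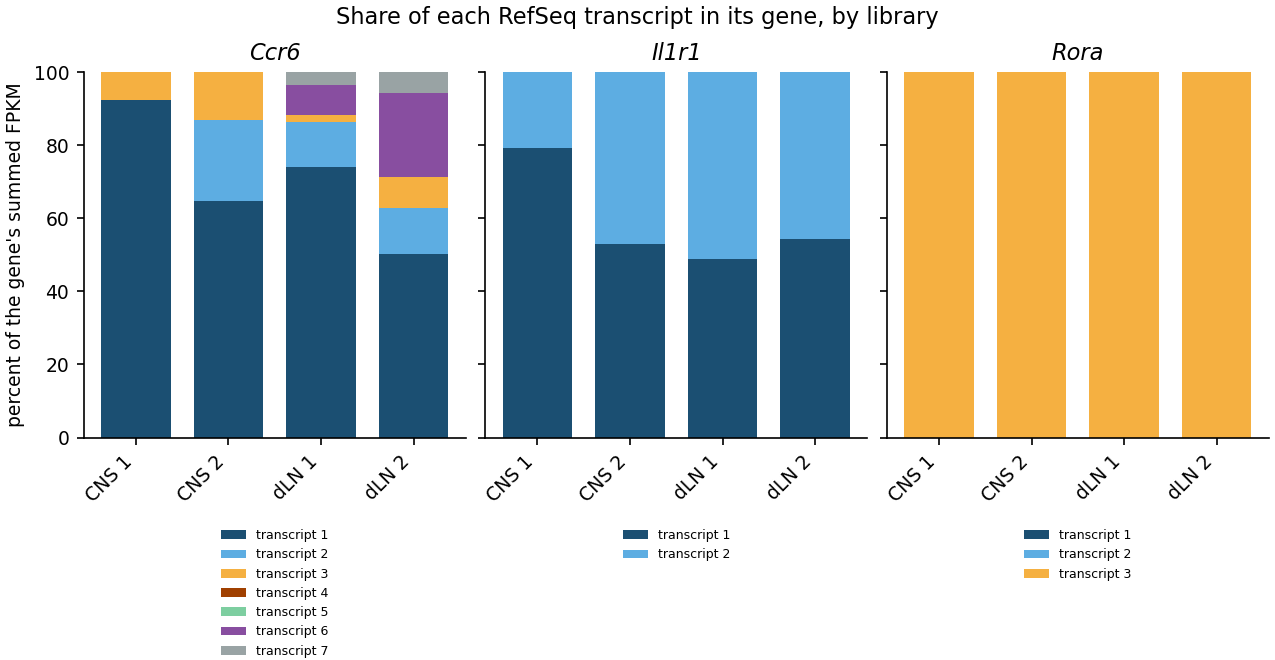
Percent of the summed FPKM of Ccr6, Il1r1 and Rora (y axis) held by each RefSeq transcript, with 1 stacked bar per library. Rora is a single colour in all 4 bars, since 1 transcript held at least 99.9995%, whereas the Ccr6 bars of dLN hold a purple share of 8.14% and 23.0% that is not visible in CNS.

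Il23r and Il12rb2 lie 46794 bases apart on chromosome 6 and encode receptor chains that both pair with the product of Il12rb1, one for IL-23 and the other for IL-12. Il12rb2 was at 39.2 and 35.3 FPKM in CNS and at 1.95 and 0.983 FPKM in dLN, a log2 ratio of 3.98 (limma adjusted p = 0.000135), against -2.38 for Il23r. Il1r2, which encodes a decoy receptor that binds IL-1 without signalling, lies 99853 bases from Il1r1 on chromosome 1 and fell with it and further, from 1471 and 1560 FPKM in dLN to 49.9 and 76.8 FPKM in CNS (log2 ratio -4.59, limma adjusted p = 0.000102). On the other side, 8449 bases away, Il1rl2 rose (log2 ratio 1.16, limma adjusted p = 0.00126). Il1r2 is also carried by regulatory T cells, whose 5 markers summed to 485 and 578 FPKM in CNS and 898 and 860 FPKM in dLN. Of the 5, 4 were lower in CNS and Tnfrsf18 was higher (log2 ratio 1.33). Much of the gap in the sum came from Il2ra, at 56.7 and 64.5 FPKM in CNS and 412 and 359 FPKM in dLN. Il2ra is also on the list of genes raised by stimulation. The part of regulatory T cells in the level of Il1r2 was not tested.

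Il17a and Il17f are each other's neighbours, 42649 bases apart, and Mcm3, a replication helicase gene that is next beyond Il17f, had a log2 ratio of -0.49 (limma adjusted p = 0.00528). Il22 lies between Mdm1 (log2 ratio 0.65, limma adjusted p = 0.0354) and Iltifb (-5.28, limma adjusted p = 0.00012). Beside Ccr6, Fgfr1op fell (log2 ratio -2.01) and Mpc1, a carrier of pyruvate into mitochondria, rose (0.53), with limma adjusted p-values of 0.000142 and 0.00737.

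**Figure D4:**
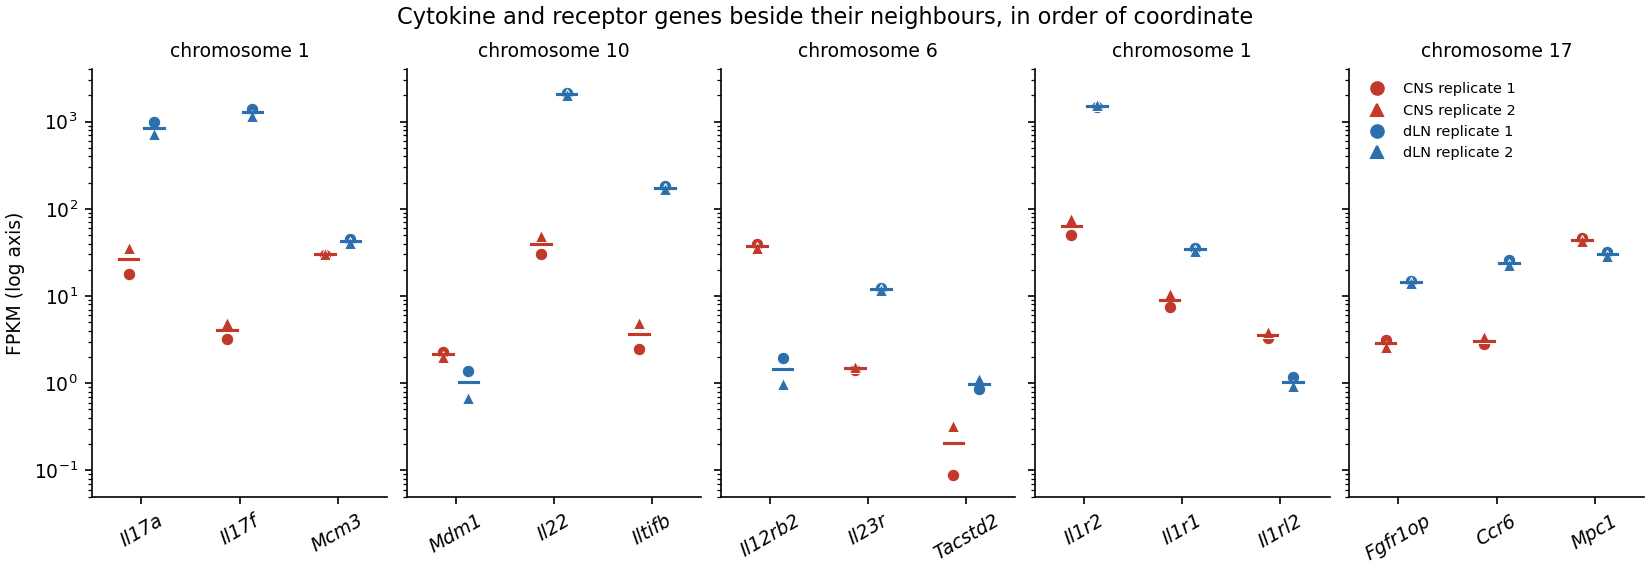
FPKM (log axis) of the cytokine and receptor genes and of their nearest neighbours, 1 panel per locus in order of coordinate, with CNS in red and dLN in blue and a line at the mean of 2 libraries. Il12rb2 stands above in CNS, at 39.2 and 35.3 FPKM, directly beside Il23r, which stands above in dLN at 12.3 and 11.6 FPKM.

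Around the members, 13 lists of the pathway and of stimulation were set out by role, and the counts of their genes are given beside the background of 37.2% lower and 37.8% higher. Over the 12 Th17 lists 80 of 97 genes were tested, of which 33 fell, 28 rose and 19 did not pass, with a median log2 ratio of 0.04, near that of all genes. A gene that reached a mean of 1 FPKM in one tissue alone entered the test through the tissue where it was high, so its direction follows from the filter. There were 8 such genes, and of the other 72 genes 30 fell, 24 rose and 18 did not pass. With libraries brought to the same level of T cell markers these log2 ratios shift downward, as given above for the median of all genes.

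Most of the other cytokines of Th17 cells were lower in CNS. Of 6 tested, 5 fell, and their median log2 ratio was -2.49. Without Il9, which reached a mean of 1 FPKM in dLN alone, 4 of 5 fell and the median was -2.53. Il21, which acts back on the T cell, was at 3.95 and 6.14 FPKM in CNS and 188 and 234 FPKM in dLN (log2 ratio -5.15), and Ccl20, the ligand of CCR6, was at 2.79 and 4.64 FPKM in CNS and 26.05 and 25.25 FPKM in dLN (-2.53). Il10 (-2.46), Il9 (-1.60) and Tnf (-2.57) also fell, and Il9 was listed at 0 in both CNS libraries. Csf2, the gene for GM-CSF, was the exception at 61.7 and 115 FPKM in CNS and 133 and 51.3 FPKM in dLN (log2 ratio 0.03, limma adjusted p = 0.967), with a sign that turned under other scalings and without CNS replicate 2 or dLN replicate 2. The IL-17 family genes Il17b, Il17c, Il17d and Il25 stayed under 0.35 FPKM in every library and were not tested.

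The receptor partners did not share one direction. Of 6 genes for the IL-23 receptor's partners and signalling, 1 fell, 2 rose and 3 did not pass, Il12rb2 being one of those that rose. Jak2, the kinase bound to the IL-23 receptor chain, was at 29.4 and 31.6 FPKM in CNS and 191 and 214 FPKM in dLN (log2 ratio -2.69), while Tyk2, bound to the shared chain, rose (1.01). The shared chain Il12rb1 itself was at 34.6 and 36.2 FPKM in CNS and 36.5 and 26.4 FPKM in dLN, with overlapping values (log2 ratio 0.18, limma adjusted p = 0.358), so that for each unit of Il12rb1 there were 0.0408 and 0.0427 units of Il23r in CNS and 0.336 and 0.441 in dLN. Stat3 (0.23, limma adjusted p = 0.0559) and Stat4 (0.16, limma adjusted p = 0.261) did not pass. The calls of Stat3 and Il12rb1 depended on the setting. Stat3 passed with the same upper quartile (0.36, limma adjusted p = 0.012), with no filter (adjusted p = 0.0481) and without CNS replicate 1 (0.27, adjusted p = 0.046), and it passed in the other direction with the same T cell markers (-0.59, adjusted p = 0.00185). Il12rb1 passed without dLN replicate 1 (0.41, limma adjusted p = 0.0466) and, in the other direction, with the same T cell markers (-0.62, adjusted p = 0.00781). Of 8 genes for the IL-1 receptor's partners and signalling, 3 fell, 3 rose and 2 did not pass. Il1rap, the accessory chain that Il1r1 needs, also fell (log2 ratio -1.496), while Irak2 (1.85), the kinase Irak4 (0.58) and the adaptor Myd88 (0.45) rose. The ratio of Il1r1 to Il1rap was 2.04 and 3.44 in CNS and 3.32 and 2.82 in dLN. The CNS libraries differed widely in this ratio, so it cannot show whether the 2 genes moved in step. Of 8 genes for IL-6, IL-21 and TGF-beta inputs, 3 fell and 3 rose, of which Tgfb3 reached a mean of 1 FPKM in CNS alone. Both IL-6 receptor chains, Il6ra (-2.06) and Il6st (-3.06), and Tgfbr1 (-1.33) fell, whereas Tgfbr2 (2.17), Tgfb3 (1.55) and Smad3 (0.87) rose.

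Among transcription factors that promote the Th17 fate, 4 of 9 tested fell, 2 rose and 3 did not pass. Irf4, the activation factor that opens Th17 enhancers together with Batf, was at 30.8 and 39.7 FPKM in CNS and 348 and 362 FPKM in dLN (log2 ratio -3.31), Batf had a log2 ratio of -1.44, and Ikzf3 one of -0.68. Bhlhe40, a factor linked to GM-CSF in EAE, was at 361 and 440 FPKM in CNS and 62.2 and 49.5 FPKM in dLN (2.82), and Nfkbiz rose as well (1.11). Hif1a was at 185 FPKM in both CNS libraries and at 200.6 and 198.7 FPKM in dLN (log2 ratio -0.11, limma adjusted p = 0.215). The 14 factors that restrain the fate all passed, with 7 lower and 7 higher and a median log2 ratio of 0.0024. Without Eomes, which reached a mean of 1 FPKM in CNS alone, 7 fell and 6 rose and the median was -0.49. Tbx21 (0.65) and Eomes (1.58), which direct Th1 and cytotoxic fates, Ets1 (1.499) and the STAT3 inhibitor Socs3 (2.39) rose, while Egr2 (-4.19), Stat5a (-2.84), Foxp3 (-1.39) and Gfi1 (-1.33) fell. Of the AhR partners and targets, 5 of 9 were tested, with 3 lower, 1 higher and 1 that did not pass. The AhR target Tiparp (-0.70) and the chaperones Hsp90ab1 (-0.77) and Ptges3 (-1.14), which hold AhR in the cytosol, fell. The classical targets Cyp1a1, Cyp1b1, Ahrr and Nqo1 had means under 1 FPKM in both tissues.

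One list of Th17 signature genes ran against the cytokines, with 6 of 8 tested genes higher, 1 lower and a median log2 ratio of 2.63. Without Abcb1a, which reached a mean of 1 FPKM in CNS alone, 5 of 7 rose and the median was 2.33. Tmem176b was at 123 and 144 FPKM in CNS and 6.44 and 3.71 FPKM in dLN (log2 ratio 4.50), and its neighbour Tmem176a followed it (4.16). Il17re, a receptor for IL-17C, was at 13.7 and 14.9 FPKM in CNS and 1.42 and 0.65 FPKM in dLN (2.94). The drug efflux pump gene Abcb1a (3.14), the salt-sensing kinase gene Sgk1 (1.61) and the chemokine receptor gene Cxcr6 (1.56) rose, Gpr65 fell (-0.72), and Serpinb1a did not pass, with CNS at 65.9 and 3.45 FPKM and dLN at 8.73 and 0.209 FPKM (2.33, limma adjusted p = 0.236). Tmem176a and Tmem176b are also carried by myeloid cells. The macrophage markers summed to 10.9 and 150 FPKM in CNS and 4.21 and 3.88 in dLN, the microglial markers to 42.5 and 40.9 in CNS and 4.32 and 2.42 in dLN, and Itgax was at 5.5 and 5.55 FPKM in CNS and 0.26 and 0.138 FPKM in dLN. Their part in the rise of the pair was not tested. IL-17 is made by gamma-delta T cells as well. Of 10 marker symbols for these, 5 were matched, summing to 4.77 and 5.73 FPKM in CNS and 1.11 and 0.689 FPKM in dLN. The constant-region genes were not among those matched, and the part of these cells in the level of Il17a was not tested.

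**Figure D5:**
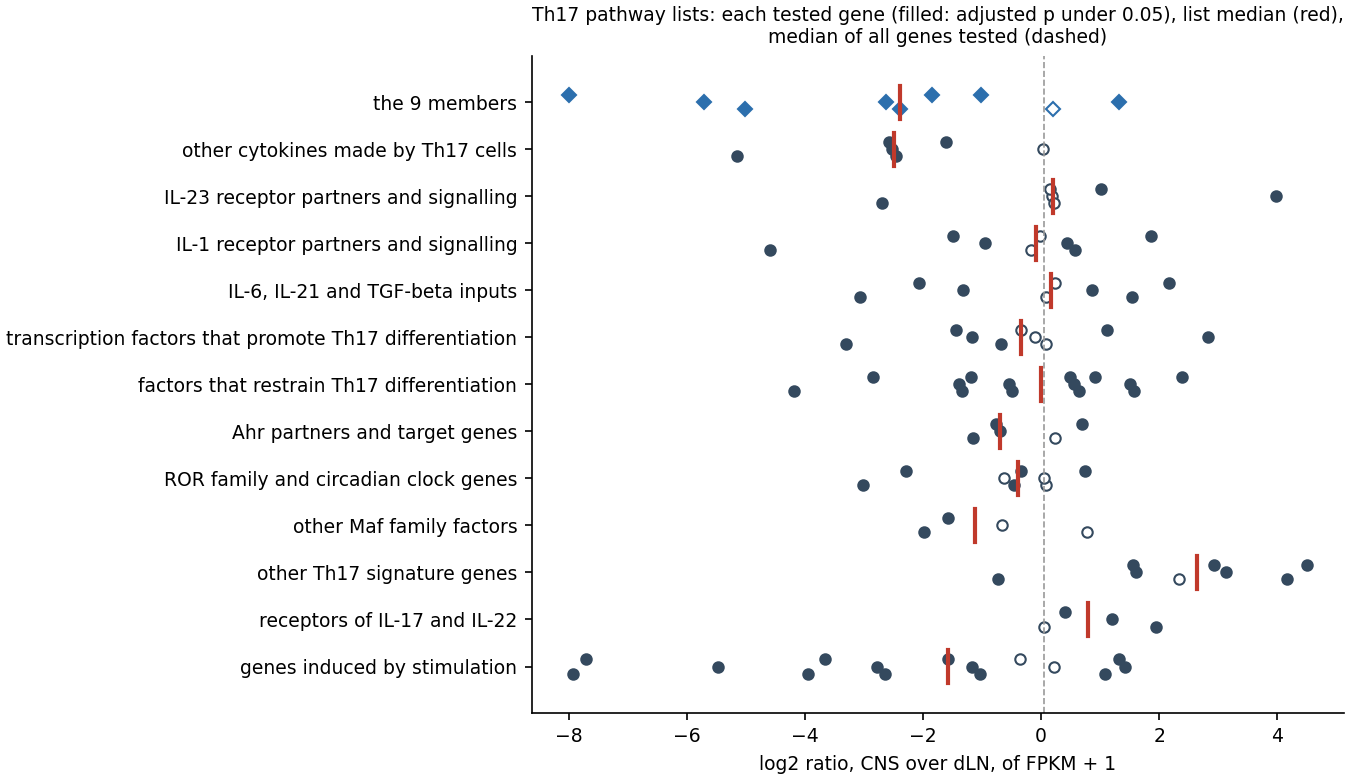
Log2 ratio of CNS over dLN on the log2(FPKM + 1) scale for each tested gene of the pathway lists, filled where the adjusted p is under 0.05, with the list median in red and the median of all genes dashed. The 9 members in blue and the other Th17 cytokines have medians of -2.38 and -2.49, while the other Th17 signature genes have one of 2.63.

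For each of the 9 genes, the 2 other tested genes with the nearest pattern were found by the distance between log2(FPKM + 1) values centred on the gene's mean over 4 libraries. For Il17f these were Il4 (distance 0.283) and Il2 (0.61), and for Il22 they were Gm2663 (0.312) and Il3 (0.321). For Il17a they were Iltifb (0.39) and Cd200 (0.462). The nearest genes to the 3 cytokines thus include the cytokine genes Il4, Il2, Il3 and Iltifb. Il4 and Gm2663 reached a mean of 1 FPKM in dLN alone, so that their direction follows from the filter. Ccr6 was nearest to Il2ra (0.0335), the high-affinity IL-2 receptor chain at 56.7 and 64.5 FPKM in CNS and 412 and 359 FPKM in dLN, and then to Tmem97. Il23r was nearest to Srsf1 and Rangrf, Il1r1 to Stx11, Ahr to Klc1 and Hspe1, Rora to Gpatch2 and Ezh1, and Maf to Pagr1a and Nucb1, all at distances of at most 0.0627. With 4 libraries in 2 groups such a distance mostly measures the size of the difference between tissues.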

How the data were processed

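RNA of CD44+CD4 cells from CNS and dLN was measured in 4 libraries, 2 per tissue. The deposited FPKM values were made by the authors from trimmed, mapped reads and cover 33819 RefSeq transcripts of mm10, in 1 table per tissue. The aligner and the FPKM program are not given in the sources used here. The header of the CNS table runs both library names together, and the 2 columns of values were assigned in the order named. FPKM was summed by gene symbol, leaving out 565 transcripts without one. Transcript starts count from 0 in the tables and from 1 here. Genes that averaged 1 FPKM or more in a tissue were tested with limma 3.58.1 (lmFit, eBayes with trend, R 4.3.3) on log2(FPKM + 1), a scale that understates changes of low genes, fitting tissue alone and adjusting by Benjamini-Hochberg across all 10634 genes. Depth was estimated from single-transcript genes, where 89.6% to 92.4% of low values lay within 0.05 of a whole multiple of 1 fragment (chance gives 10%). Fragments given here rest on that estimate and cover counting error only. Tested on simulated data, the estimate was within 1%. In the same way, limma was run on simulated CNS and dLN values of 10634 genes. Only 95 of these were changed by 1 on the log2 scale and 105 by 2. It recovered 52 of the 95 and 98 of the 105, with 8 false calls. Far fewer genes were changed there than the 74.9% called in the data, so these counts do not carry over to the comparison made here.

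Promoter windows came from RefSeq (GRCm38.p6), spliced transcripts for the identity of Il22 and Iltifb from GENCODE M21 (biopython 1.88), and other values from scipy 1.17.1, pandas 2.3.3 and numpy 2.4.6 under Python 3.11.15, with plots by matplotlib 3.10.9. The genes named are the 9 members, the genes of 13 lists and 12 cell type marker lists, the nearest neighbours on the chromosome, copies of a member and the 2 nearest patterns to each member. Some genes of these lists are counted but not reported here by name. Members, lists and tests were chosen with earlier results of these data known. Alternatives covered the pseudocount, filters, 4 scalings, the highest transcript, eBayes without trend, each library left out, a minimum fold and a replicate block.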

Additional observations from a re-analysis of the deposited data

How the results depend on the processing

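Over the 9 genes and 16 alternatives each, 142 of 144 values stayed on the same side of 0 and of the threshold. The other 2 were those of Rora, which passed at 0.34 with the same upper quartile and turned to -0.58 with the same T cell markers. The scalings shifted the median of all genes by -0.18 (same sum), 0.12 (upper quartile), -0.019 (median ratio) and -0.74 (T cell markers). With each library left out in turn, where the lone library is assumed to vary like the other tissue, the ranges were -5.48 to -4.53 for Il17a, -8.24 to -7.75 for Il17f, -6.04 to -5.38 for Il22, -2.42 to -2.34 for Il23r, -2.07 to -1.62 for Il1r1, -2.71 to -2.52 for Ccr6, 0.17 to 0.25 for Rora, -1.12 to -0.91 for Ahr and 1.09 to 1.56 for Maf. The ratio of Il17f to Il17a differed by -3.45 to -3.08 on the log2 scale. Among the other genes followed, Il12rb1 turned to -0.0083 with the same sum, -0.62 with the same T cell markers and -0.043 without dLN replicate 2 (up to 0.41 with other libraries left out), and Stat3 to -0.59 with the same T cell markers. Csf2 turned to -0.17 with the same sum, -0.79 with the same T cell markers, -0.42 without CNS replicate 2 and -0.65 without dLN replicate 2 (up to 0.70 with other libraries left out). The cause of these turns was not tested, apart from the shift that each scaling gives every gene.

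The count of genes called was 7968, between 6596 and 8645 over the fits, and 4168 with a log2 ratio above 1 or below -1 also required, since fewer genes pass a second criterion. No source names a pairing of the libraries by replicate number. Across genes, the difference between replicates correlated between CNS and dLN at 0.0933. A low correlation cannot show that libraries are unpaired, since effects of a shared animal may be small beside other differences. A fit with a replicate block called 7828 genes, and the block changed no call among the 9 genes. With 2 libraries per tissue, no outlier could be told from the spread.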

Other observations

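RORα also drives the circadian clock, and of 8 tested genes of the ROR family and the clock 4 fell, 1 rose and 3 did not pass (median log2 ratio -0.40). Npas2 and Per2 reached a mean of 1 FPKM in dLN alone, so that their direction follows from the filter, and of the other 6 genes 2 fell and 1 rose (median -0.15). Npas2, a partner of BMAL1, was at 0.107 and 0.439 FPKM in CNS and 8.61 and 9.88 FPKM in dLN (log2 ratio -3.02), and Per2, a clock repressor, was at 0.101 and 0.196 FPKM in CNS and 4.18 and 5.11 FPKM in dLN (-2.29). The clock repressor gene Nr1d1, a target of RORα, rose (0.75, limma adjusted p = 0.0093), while Arntl, which encodes BMAL1, was at 10.9 and 12.3 FPKM in CNS and 11.5 and 10.9 FPKM in dLN (0.05, limma adjusted p = 0.7).

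Of the genes for small Maf proteins, which lack an activation domain, Mafg and Mafk fell. Mafg was at 8.27 and 10.99 FPKM in CNS and 38.8 and 42.5 FPKM in dLN (log2 ratio -1.98), and Mafk had a log2 ratio of -1.57. Maff did not pass (-0.66, limma adjusted p = 0.0614). Of 4 tested genes for receptors of IL-17 and IL-22, 3 rose, of which Il17rc reached a mean of 1 FPKM in CNS alone, with Il10rb, a chain shared by the receptors of IL-22 and IL-10, at 31.4 and 27.7 FPKM in CNS and 7.10 and 6.69 FPKM in dLN (1.95), and Il22ra1, the chain that binds IL-22, had a mean under 1 FPKM in both tissues.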
